A study of Homo sapiens with 6 samples.

Results

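Transcripts of 54 genes that carry a cell from G1 into S phase and copy its DNA were followed in AsPC-1 cells after knockdown of HMOX1. AsPC-1 is a human pancreatic adenocarcinoma line, and the product of HMOX1, heme oxygenase-1, breaks down heme under stress. The genes were taken as a list by function, covering G1 cyclins and their kinases, RB1 and E2F factors, origin licensing, the replicative helicase, the clamp and its loader, polymerases, nucleotide synthesis and chromatin assembly. All 54 were present among the 20263 genes of the deposited table, and all 54 passed the filter on low counts among the 13769 genes tested.

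The study's stated question is how HMOX1 may act on proliferation in this cancer. The groups were AsPC-1 cells transfected with HMOX1si2, cells transfected with HMOX1si1, the labels giving each as a separate HMOX1 siRNA, and cells transfected with a negative control siRNA (siControl), with 2 libraries in each group. All cells were transfected with jetPRIME, all groups are the same line, and the time between transfection and harvest is not given in the sources used here. Libraries were made with an mRNA library kit, and their totals ran from 36144330 to 45068660 counts.

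Cells enter S phase when cyclin D kinases and cyclin E kinase phosphorylate the retinoblastoma protein RB1 and thereby release E2F transcription factors, which switch on the genes for DNA copying. Before that, the origin recognition complex, CDC6 and CDT1 load the MCM helicase onto origins, and in S phase CDC45 and GINS turn it into an active helicase that polymerases follow. Many of the genes followed here are known targets of E2F factors, and pancreatic adenocarcinomas commonly lose CDKN2A, a brake on this step. The CDKN2A transcript was detected in every library here, as given below, which does not show whether the gene is intact. In RNA from bulk cells, a smaller share of cells in S phase and less transcript per cell cannot be told apart.

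HMOX1 itself, the targeted gene, had 1.27 and 1.17 CPM (counts relative to the library total, after TMM scaling of the libraries) in the HMOX1si2 libraries, 2.43 and 2.80 CPM in the HMOX1si1 libraries, and 9.06 and 8.52 CPM in the siControl libraries. Its level was below both controls in all 4 knockdown libraries, and the fitted level was 13.9% of control with HMOX1si2 and 29.8% with HMOX1si1. The edgeR adjusted p was 0.00951 with HMOX1si2 and 0.00618 with HMOX1si1. The HMOX1si2 call was lost without siControl replicate 1 (0.0779) or 2 (0.0960), and the HMOX1si1 call without siControl replicate 2 (0.0637). Between the siRNAs, HMOX1 was lower with HMOX1si2 (log2 fold change −1.10, edgeR adjusted p = 0.0284), a call lost in several fits given below. The 6 epithelial markers of the line (EPCAM, CDH1 and keratin genes) were detected in every library. They summed to 12306 and 13037 CPM with HMOX1si2, 9064 and 8717 CPM with HMOX1si1, and 12593 and 14284 CPM in siControl, so they were lower with HMOX1si1, and their part in the results was not tested. Each list of markers for another cell type (fibroblast, blood, endothelial, acinar or endocrine) summed to at most 10.5 CPM in any library. Nothing in the labels says that the 2 libraries of a group came from separate cultures, so p-values measure the spread between these libraries, which may be technical.

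Of the 54 genes, 48 were called in no comparison and 6 in at least 1. CDK6 rose and E2F2 fell with both siRNAs. CCND1 and POLA2 fell with HMOX1si2, CCNE1 fell and E2F8 rose with HMOX1si1, and CCND1 was lower with HMOX1si2 than with HMOX1si1. Promoter sequences of the called genes for which RefSeq tables give one are shown first, with that of MCM6 as a helicase subunit that was not called, because E2F factors act at such promoters. CCND1 and E2F8 are named without a sequence. Each covers 300 bases, from 250 before to 50 after a RefSeq transcription start in GRCh38.p14, read 5′ to 3′ on the gene's strand. CCNE1 lies at chr19:29811741-29812040 (plus strand), CDK6 at chr7:92836524-92836823 (minus strand, the first of 2 entries), E2F2 at chr1:23531184-23531483 (minus strand), MCM6 at chr2:135876394-135876693 (minus strand) and POLA2 at chr11:65261712-65262011 (plus strand). Capitals mark the words TTTCGCGC, TTTGGCGC, TTTCCCGC and TTTGCCGC on either strand, which are forms of the E2F binding motif.
CCNE1: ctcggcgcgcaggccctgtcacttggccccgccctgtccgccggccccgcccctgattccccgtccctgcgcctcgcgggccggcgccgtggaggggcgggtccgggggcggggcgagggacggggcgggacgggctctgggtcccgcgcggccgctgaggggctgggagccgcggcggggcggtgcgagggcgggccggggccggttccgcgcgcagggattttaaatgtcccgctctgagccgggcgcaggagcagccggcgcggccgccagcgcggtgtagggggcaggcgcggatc
CDK6: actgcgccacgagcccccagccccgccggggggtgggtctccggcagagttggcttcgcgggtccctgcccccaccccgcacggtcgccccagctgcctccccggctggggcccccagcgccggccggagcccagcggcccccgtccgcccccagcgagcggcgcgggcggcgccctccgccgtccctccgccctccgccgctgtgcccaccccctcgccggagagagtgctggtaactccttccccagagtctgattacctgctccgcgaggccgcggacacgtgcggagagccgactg
E2F2: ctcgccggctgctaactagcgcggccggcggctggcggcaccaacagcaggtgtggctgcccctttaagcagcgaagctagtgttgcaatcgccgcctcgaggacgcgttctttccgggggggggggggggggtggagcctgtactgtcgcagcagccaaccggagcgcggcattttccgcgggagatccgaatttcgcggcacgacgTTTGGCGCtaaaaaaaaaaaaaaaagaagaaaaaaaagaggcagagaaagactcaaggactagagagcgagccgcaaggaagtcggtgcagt
MCM6: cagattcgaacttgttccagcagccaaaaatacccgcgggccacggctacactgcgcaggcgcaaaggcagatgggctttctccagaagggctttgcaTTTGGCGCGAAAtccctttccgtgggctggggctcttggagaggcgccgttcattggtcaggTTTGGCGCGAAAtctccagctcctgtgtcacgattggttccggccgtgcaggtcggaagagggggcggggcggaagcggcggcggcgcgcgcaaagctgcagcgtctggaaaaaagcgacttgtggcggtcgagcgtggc
POLA2: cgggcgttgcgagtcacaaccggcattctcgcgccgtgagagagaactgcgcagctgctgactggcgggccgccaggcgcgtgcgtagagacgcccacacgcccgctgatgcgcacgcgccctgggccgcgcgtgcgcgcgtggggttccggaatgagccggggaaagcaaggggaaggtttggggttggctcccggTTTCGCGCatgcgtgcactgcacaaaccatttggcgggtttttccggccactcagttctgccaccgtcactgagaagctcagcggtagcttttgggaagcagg

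E2F2 and POLA2 each held 1 such word, which began 42 bases before the start in E2F2 and 53 bases before it in POLA2. MCM6 held 2 stretches in each of which TTTGGCGC on the gene's strand overlaps TTTCGCGC on the other, beginning 152 and 90 bases before the start. None of the 4 words was found in the windows of CCNE1 and CDK6. Only these exact words were searched, so other forms of the motif would stand unmarked in any of the windows. Over the list, 45 genes matched the promoter table by symbol and 24 of them (53.3%) held at least 1 word, against 3.99% of the 27305 genes with an entry. Those 27305 genes outnumber the 20263 of the deposited table. Many listed genes are known E2F targets, so this contrast partly follows from the choice of genes. The 24 genes with a word had a median log2 fold change of −0.18 with HMOX1si2 and 0.03 with HMOX1si1, and the 21 genes with an entry and no word had medians of −0.16 and −0.05. A word in these windows is a description of the sequence and not a measured site.

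Against siControl, HMOX1si2 changed 4 of the 54 genes (7.41%), 1 higher and 3 lower, where 5.73% of all 13769 genes tested were called, 3.06% higher and 2.67% lower. HMOX1si1 also changed 4 of the 54, 2 higher and 2 lower, where 10.0% of all genes were called, 5.02% higher and 5.01% lower. Between the siRNAs, HMOX1si2 against HMOX1si1, 1 of 54 genes was called, lower, where 3.62% of all genes were called, 2.14% higher and 1.49% lower. The shares of the list called against siControl therefore lay near or below those of all genes. All calls use edgeR's quasi-likelihood test with a Benjamini-Hochberg adjusted p under 0.05 over all genes tested. Both comparisons with siControl share its 2 libraries.

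Most of these transcripts stayed within narrow bounds. The 95% interval of the fold change, unadjusted for the number of genes, lay within 2-fold of control for 48 of 54 genes with HMOX1si2 and for 49 with HMOX1si1, against 74.1% and 71.4% of all genes tested. The median standard error (SE) of the log2 fold change was 0.12 for the list and 0.15 over all genes with either siRNA. Intervals lay within 1.5-fold for 30 of the 54 genes with HMOX1si2 and 39 with HMOX1si1. The median log2 fold change over the list was −0.18 with HMOX1si2 and 0.03 with HMOX1si1, against medians of 0.00 and −0.00 over all genes. With HMOX1si2, 31 of the 54 genes lay below both control libraries in both of its own and 5 lay above, where 28.1% and 28.9% of all genes did so. With HMOX1si1, 13 lay below and 17 above, where 31.9% of all genes lay below and 31.9% above.

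**Figure D1:**
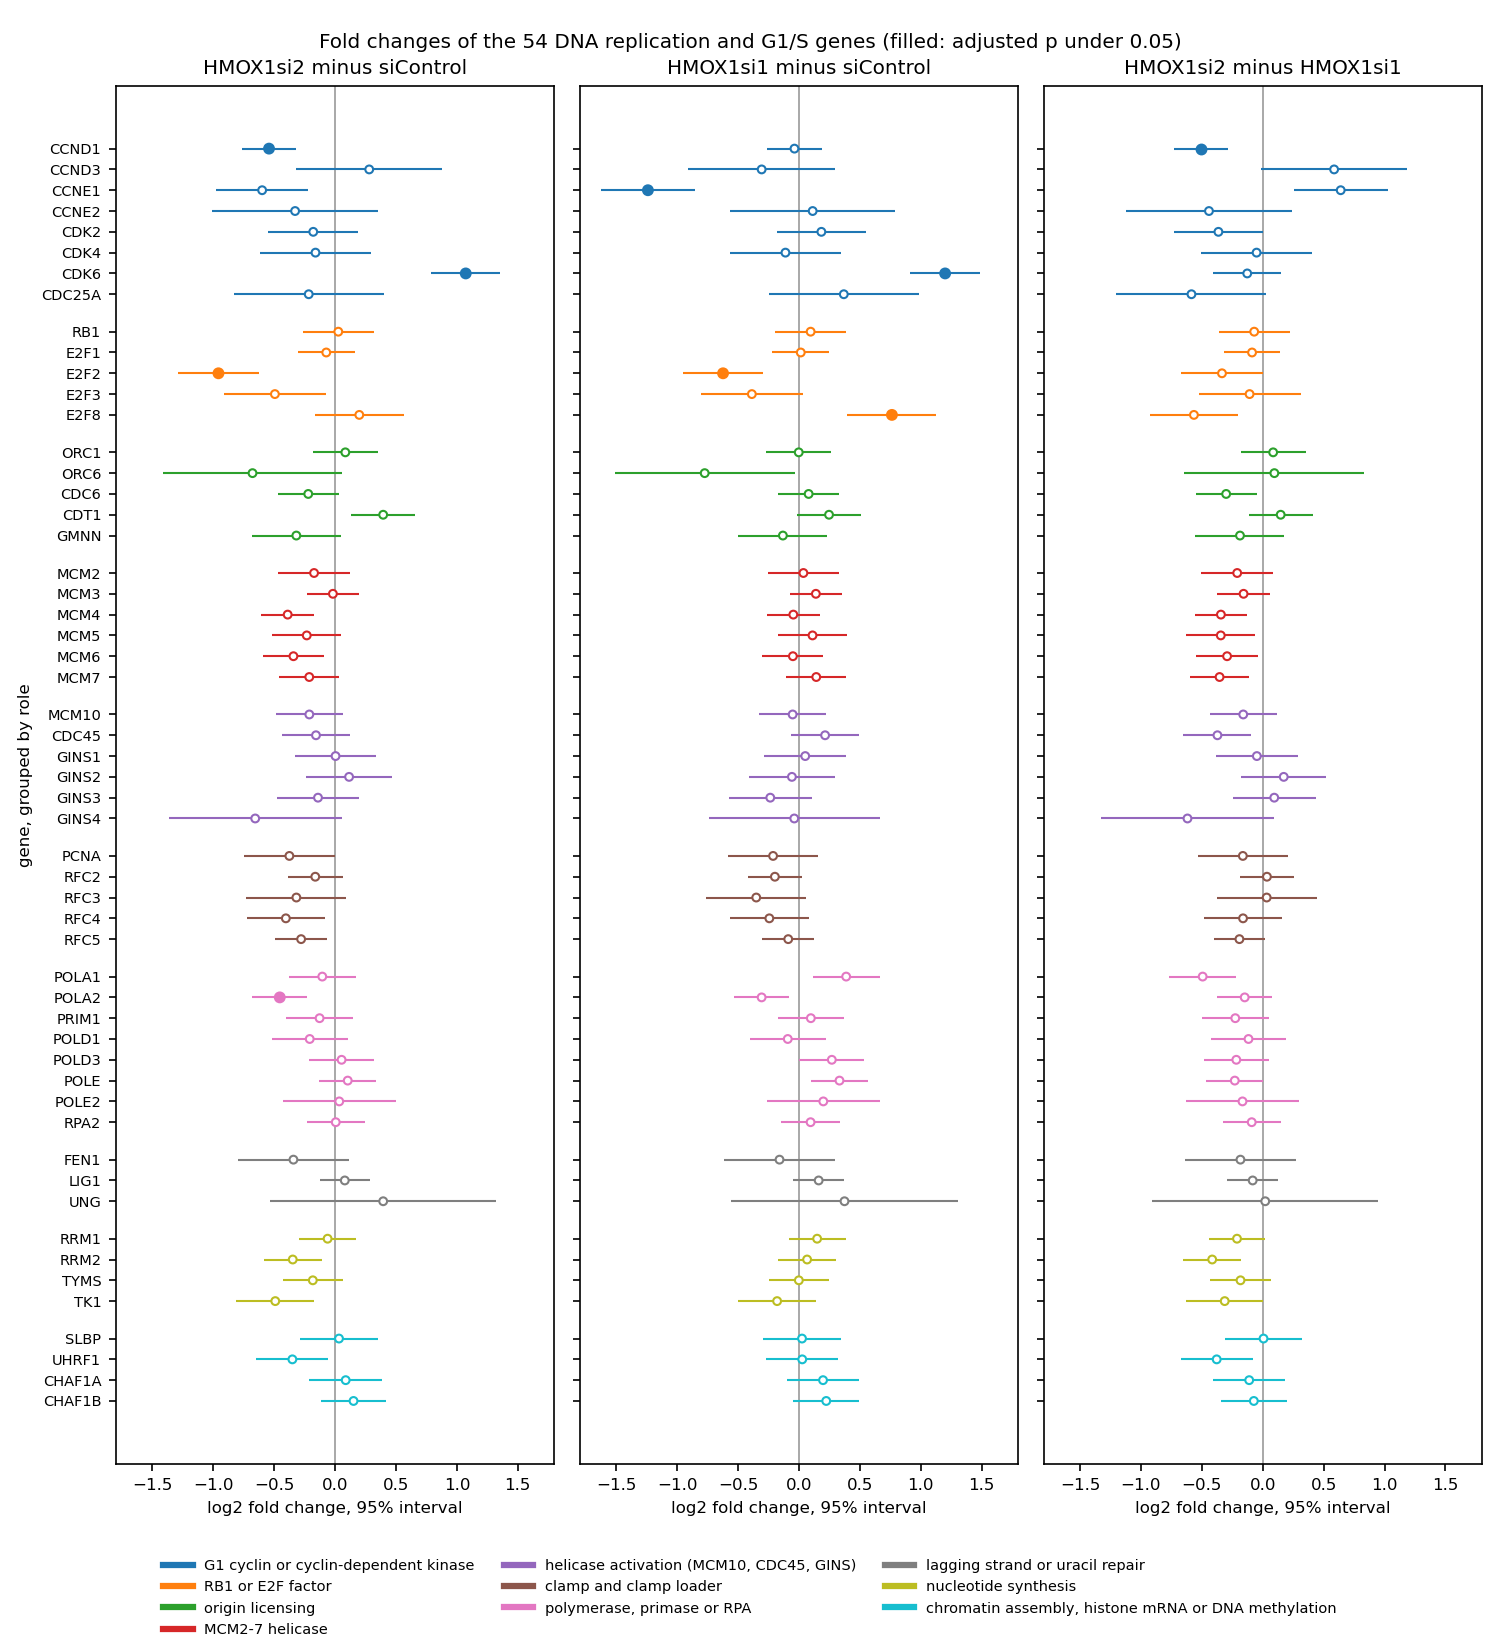
Log2 fold change (x axis) of each of the 54 genes (y axis, grouped and coloured by role) for HMOX1si2 against siControl, HMOX1si1 against siControl and HMOX1si2 against HMOX1si1, with points for the edgeR estimate, lines for the 95% interval and filled points for an adjusted p under 0.05. Filled points are few (4, 4 and 1), and CDK6 is the single gene filled on the right of 0 with both siRNAs.

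Among G1 cyclins and kinases, CDK6, the cyclin D-dependent kinase, was about doubled with each siRNA. It had 83.0 and 76.2 CPM in HMOX1si2 libraries, 84.9 and 89.0 CPM in HMOX1si1 libraries, and 41.0 and 34.7 CPM in siControl libraries, so that every knockdown library was above both controls. The log2 fold change was 1.07 with HMOX1si2 (SE 0.12, edgeR adjusted p = 0.0177) and 1.20 with HMOX1si1 (SE 0.12, edgeR adjusted p = 0.00691), and the difference between the siRNAs was −0.13 (95% interval −0.41 to 0.15, edgeR adjusted p = 0.593). CDK6 (ENSG00000105810) lies on the minus strand of chromosome 7 from 92604921 to 92836594 (GRCh38, GENCODE 29). With replicate number added to the fit as a block, its HMOX1si2 call was lost and its HMOX1si1 call stayed. The call with HMOX1si2 was lost without HMOX1si2 replicate 1 (edgeR adjusted p = 0.0650) and without siControl replicates 1 and 2 (0.0792 and 0.112). The call with HMOX1si1 was lost without HMOX1si1 replicate 2 (0.0526) and without siControl replicate 2 (0.0636). CDK4, the close relative of CDK6 that acts with the same cyclins, had 61.6 and 87.2 CPM with HMOX1si2, 85.0 and 69.2 CPM with HMOX1si1, and 79.9 and 86.5 CPM in siControl, with groups that overlap.

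CCND1, cyclin D1, the partner of both kinases, fell with HMOX1si2. It had 304 and 317 CPM in HMOX1si2 libraries, 455 and 428 CPM in HMOX1si1 libraries, and 469 and 436 CPM in siControl libraries. The HMOX1si2 libraries lay below all others, and HMOX1si1 overlapped siControl. The log2 fold change was −0.54 with HMOX1si2 (SE 0.09, edgeR adjusted p = 0.0342) and −0.04 with HMOX1si1 (95% interval −0.26 to 0.19, edgeR adjusted p = 0.810). The difference of HMOX1si2 from HMOX1si1 was −0.51 (SE 0.09, edgeR adjusted p = 0.0440). Both calls of CCND1 were lost without any 1 of the 6 libraries (edgeR adjusted p from 0.0690 to 0.137 against siControl and from 0.0854 to 0.239 between the siRNAs), and with the compared groups fitted alone (0.0752 and 0.0857), and the second also with library totals as the scaling (0.0663). Both CCND1 calls were also lost with the replicate block. CCND1 (ENSG00000110092, chromosome 11 from 69641087 to 69654474, plus strand) shares exonic bases with LTO1, so its counts may be divided between the gene models. CCND3, cyclin D3, had 24.0 and 41.5 CPM with HMOX1si2, 21.3 and 22.3 CPM with HMOX1si1, and 25.9 and 28.0 CPM in siControl, and its HMOX1si2 replicates were 1.73-fold apart. CCND3 was not called over all libraries, and without HMOX1si2 replicate 1 it was called between the siRNAs.

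CCNE1, cyclin E1, which drives CDK2 at the entry to S phase, fell with HMOX1si1. It had 4.82 and 4.91 CPM with HMOX1si2, 2.81 and 3.43 CPM with HMOX1si1, and 7.60 and 7.14 CPM in siControl. All knockdown libraries lay below both controls, and the HMOX1si1 libraries were lowest. Its log2 fold change against siControl was −0.60 with HMOX1si2 (SE 0.15, edgeR adjusted p = 0.0810), which was not called, and −1.24 with HMOX1si1 (SE 0.16, edgeR adjusted p = 0.0124). The difference of HMOX1si2 from HMOX1si1 was 0.64 (95% interval 0.25 to 1.03, edgeR adjusted p = 0.0882), so the siRNAs were not shown to differ over all genes tested. The HMOX1si1 call was lost without HMOX1si1 replicates 1 and 2 (0.0676 and 0.0574) and without siControl replicates 1 and 2 (0.0595 and 0.0770). CCNE1 spans 29811898 to 29824308 on the plus strand of chromosome 19. CCNE2, cyclin E2, had 2.56 and 2.52 CPM with HMOX1si2, 2.55 and 4.35 CPM with HMOX1si1, and 3.48 and 2.91 CPM in siControl, with a log2 fold change of −0.33 with HMOX1si2 and 0.11 with HMOX1si1, neither called. CDK2 and CDC25A, the phosphatase that activates it, were not called either, at −0.18 and −0.22 with HMOX1si2 and 0.18 and 0.37 with HMOX1si1.

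RB1 and the activator E2F1 stayed close to control with both siRNAs. RB1 had 45.5 and 41.8 CPM with HMOX1si2, 43.3 and 48.4 CPM with HMOX1si1, and 46.1 and 39.7 CPM in siControl. E2F1 had 41.9 and 46.8 CPM with HMOX1si2, 47.6 and 46.7 CPM with HMOX1si1, and 46.3 and 47.0 CPM in siControl. The 95% intervals of their log2 fold changes were −0.27 to 0.32 for RB1 and −0.31 to 0.16 for E2F1 with HMOX1si2, and −0.20 to 0.39 for RB1 and −0.22 to 0.25 for E2F1 with HMOX1si1.

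E2F2, an activator E2F like E2F1, fell with both siRNAs. It had 4.96 and 5.39 CPM with HMOX1si2, 6.73 and 6.33 CPM with HMOX1si1, and 9.56 and 10.5 CPM in siControl, with no overlap between any of the groups. The log2 fold change was −0.96 with HMOX1si2 (SE 0.14, edgeR adjusted p = 0.0243) and −0.62 with HMOX1si1 (SE 0.14, edgeR adjusted p = 0.0424), and the siRNAs differed by −0.33 (edgeR adjusted p = 0.241). Leaving out any 1 library ended both calls (edgeR adjusted p from 0.0535 to 0.137 with HMOX1si2 and from 0.0512 to 0.217 with HMOX1si1), as did fitting the compared groups alone (0.0533 and 0.0507), and scaling by library totals ended the HMOX1si1 call (0.0532). Both E2F2 calls were also lost with the replicate block. E2F2 spans 23506430 to 23531220 on the minus strand of chromosome 1. E2F3, the other activator on the list, had log2 fold changes of −0.49 with HMOX1si2 and −0.39 with HMOX1si1 and was not called (edgeR adjusted p = 0.144 and 0.186). E2F8, an atypical E2F that represses E2F targets, rose with HMOX1si1: it had 13.0 and 11.3 CPM with HMOX1si2, 16.8 and 19.1 CPM with HMOX1si1, and 11.4 and 9.80 CPM in siControl. Its log2 fold change was 0.20 with HMOX1si2 (edgeR adjusted p = 0.436) and 0.76 with HMOX1si1 (SE 0.15, edgeR adjusted p = 0.0331), and the difference of HMOX1si2 from HMOX1si1 was −0.57 (95% interval −0.93 to −0.20, edgeR adjusted p = 0.0990). E2F8 spans 19224063 to 19241620 on the minus strand of chromosome 11. The E2F8 call with HMOX1si1 was lost with the replicate block. Its call was lost without HMOX1si1 replicates 1 and 2 (0.0937 and 0.176) and without siControl replicates 1 and 2 (0.0838 and 0.158).

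**Figure D2:**
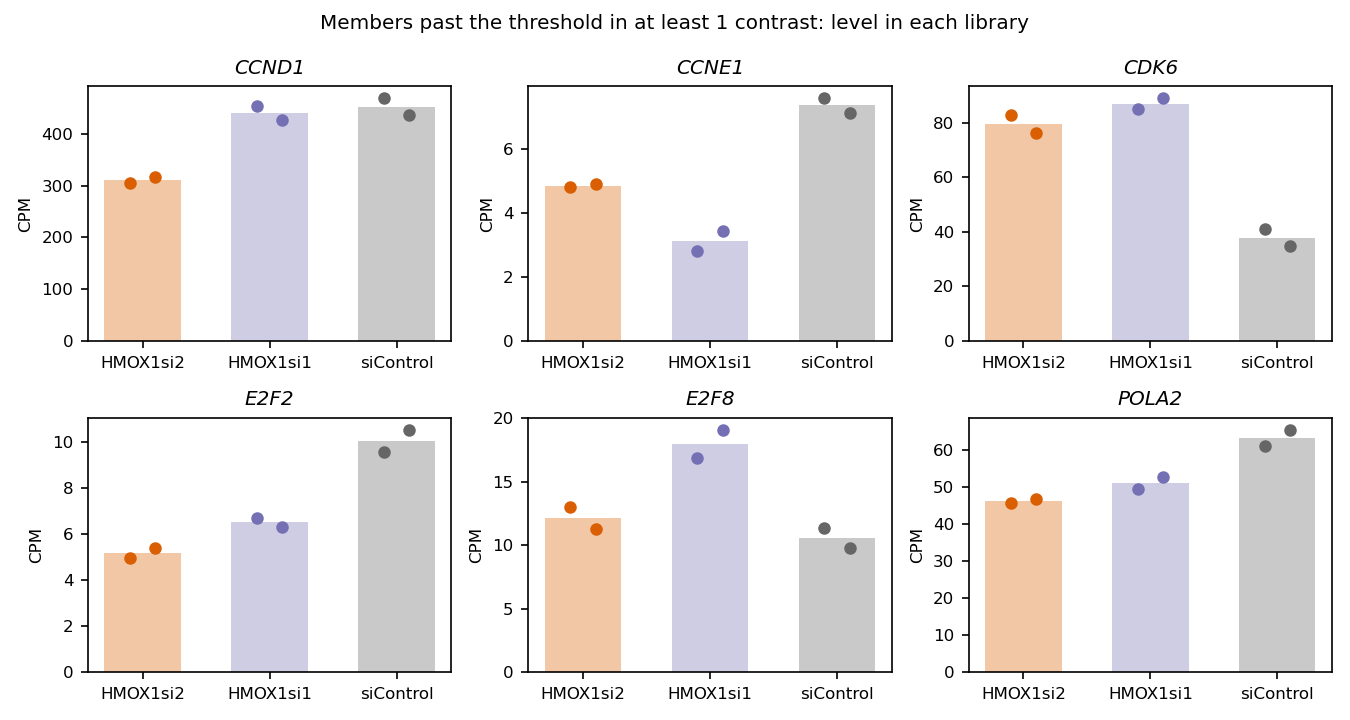
CPM (y axis, from 0) of the 6 genes called in at least 1 comparison, with 1 panel per gene, points for the 2 libraries of each group and bars for their mean. CDK6 is higher in all 4 knockdown libraries (76.2 to 89.0) than in siControl (34.7 and 41.0), whereas CCND1 is low in HMOX1si2 alone (304 and 317).

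Origin licensing genes were not called by edgeR with either siRNA. Of the 5, edgeR found 1 at an unadjusted p under 0.05 with each siRNA, and DESeq2 called 1 with HMOX1si2 and 0 with HMOX1si1. The licensing factor CDT1 had 106.6 and 94.9 CPM with HMOX1si2, 86.2 and 95.8 CPM with HMOX1si1, and 74.1 and 79.3 CPM in siControl. Its knockdown libraries were all above both controls, with log2 fold changes of 0.39 with HMOX1si2 (95% interval 0.13 to 0.66, edgeR adjusted p = 0.0928) and 0.25 with HMOX1si1 (−0.02 to 0.51, edgeR adjusted p = 0.183). ORC6, a subunit of the origin recognition complex, had 18.3 and 11.9 CPM with HMOX1si2, 17.9 and 10.4 CPM with HMOX1si1, and 23.9 and 24.4 CPM in siControl. All its knockdown libraries were below the controls, but its replicates differed by 1.53-fold with HMOX1si2 and 1.73-fold with HMOX1si1, and it was not called. ORC1, the largest subunit of that complex, CDC6, which loads the helicase, and GMNN, geminin, the inhibitor of CDT1, had log2 fold changes of 0.08, −0.22 and −0.32 with HMOX1si2 and −0.00, 0.08 and −0.13 with HMOX1si1.

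The 6 subunits of the MCM2-7 helicase were close to control with HMOX1si1, at log2 fold changes from −0.05 to 0.14, and lower in value with HMOX1si2, from −0.39 to −0.02. EdgeR called 0 of them in each comparison, with 2 at an unadjusted p under 0.05 for HMOX1si2, 0 for HMOX1si1 and 4 for HMOX1si2 against HMOX1si1, while DESeq2 called 1, 0 and 2. MCM4 had 56.0 and 55.4 CPM with HMOX1si2, 68.4 and 72.9 CPM with HMOX1si1, and 74.6 and 71.4 CPM in siControl. MCM6 had 47.6 and 53.5 CPM with HMOX1si2, 64.2 and 59.8 CPM with HMOX1si1, and 66.0 and 62.3 CPM in siControl. In both genes the HMOX1si2 libraries were the lowest, with log2 fold changes against siControl of −0.39 (95% interval −0.61 to −0.17, edgeR adjusted p = 0.0609) and −0.34 (−0.59 to −0.09, edgeR adjusted p = 0.110).

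MCM7 had 203 and 225 CPM with HMOX1si2, 286 and 261 CPM with HMOX1si1, and 243 and 252 CPM in siControl. MCM2 had 121 and 128 CPM with HMOX1si2, 159 and 129 CPM with HMOX1si1, and 143 and 138 CPM in siControl. MCM3 had 66.2 and 69.7 CPM with HMOX1si2, 76.6 and 74.9 CPM with HMOX1si1, and 67.0 and 70.6 CPM in siControl. For all 6 subunits both HMOX1si2 libraries lay below both HMOX1si1 libraries, with differences on the log2 scale from −0.35 (MCM7) to −0.16 (MCM3). EdgeR called none of these differences, and DESeq2 called those of MCM4 and MCM7. Over all 13769 genes tested, 3578 lay below in this way and 51.2% did not overlap in either direction. MCM5 lies close to the targeted gene on the same strand: HMOX1 ends at 35394214 on chromosome 22 and MCM5 spans 35400063 to 35425430, 5848 bases on (GRCh38, GENCODE 29). It had 79.1 and 71.6 CPM with HMOX1si2, 97.8 and 93.6 CPM with HMOX1si1, and 81.1 and 96.1 CPM in siControl. Its 95% interval against siControl was −0.52 to 0.05 with HMOX1si2 and −0.17 to 0.40 with HMOX1si1, and it was not called.

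**Figure D3:**
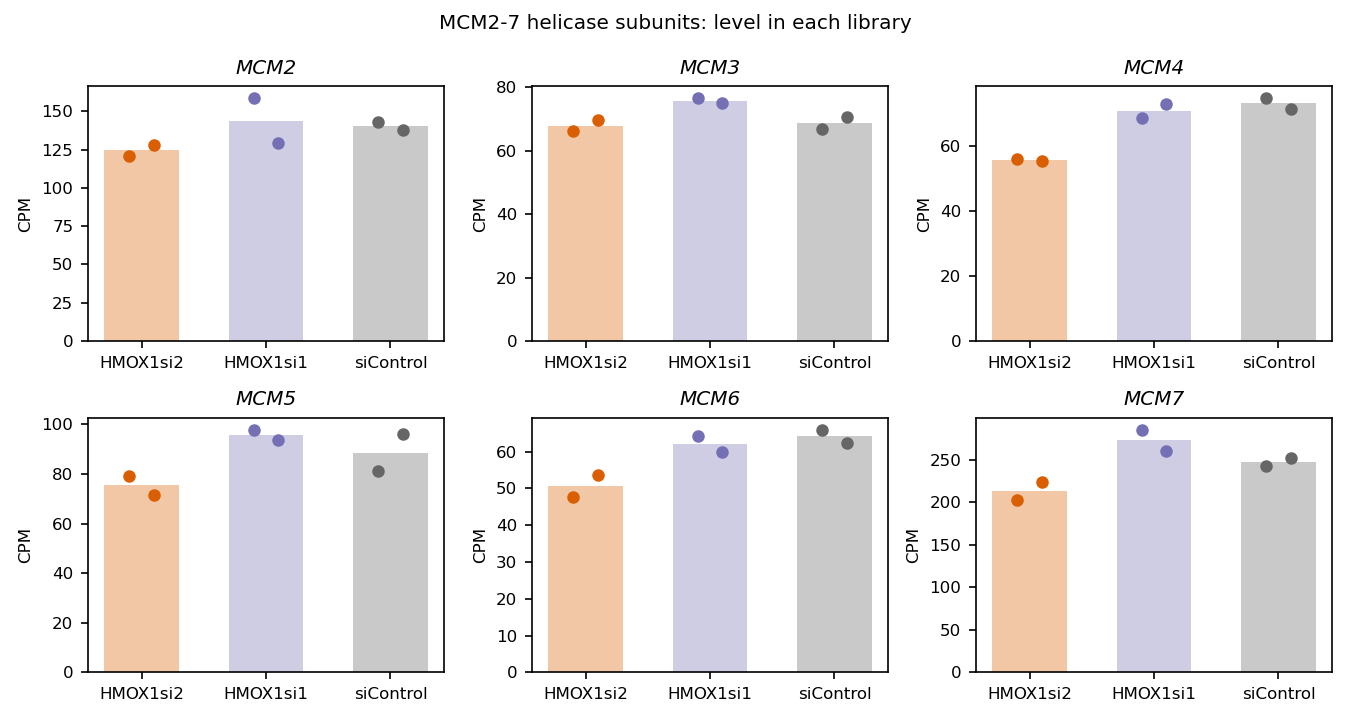
CPM (y axis, from 0) of the 6 MCM2-7 subunit genes, with 1 panel per gene, points for the 2 libraries of each group and bars for their mean. In each panel both HMOX1si2 points lie below both HMOX1si1 points; for MCM4 they are 56.0 and 55.4 with HMOX1si2 against 68.4 and 72.9 with HMOX1si1.

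Of the factors that activate the helicase, MCM10, CDC45 and the 4 GINS subunits, edgeR called 0 in each comparison, with 0, 0 and 1 at an unadjusted p under 0.05 for HMOX1si2, HMOX1si1 and HMOX1si2 against HMOX1si1, and DESeq2 called 0 in each. CDC45 had 15.4 and 16.6 CPM with HMOX1si2, 19.7 and 21.6 CPM with HMOX1si1, and 17.7 and 18.0 CPM in siControl. The 2 siRNAs thus lay on opposite sides of the controls, at log2 fold changes of −0.16 with HMOX1si2 and 0.21 with HMOX1si1, with a difference of −0.37 (95% interval −0.65 to −0.09, edgeR adjusted p = 0.141). MCM10 and the GINS1, GINS2 and GINS3 genes lay between −0.21 and 0.11 with HMOX1si2 and between −0.24 and 0.05 with HMOX1si1. GINS4 was at −0.66 with HMOX1si2 and −0.04 with HMOX1si1, and its siControl replicates were 1.51-fold apart, at 4.84 and 7.32 CPM.

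PCNA, the sliding clamp, and the 4 clamp loader genes on the list, RFC2, RFC3, RFC4 and RFC5, had values below control with both siRNAs. None was called. PCNA had 70.2 and 87.5 CPM with HMOX1si2, 94.8 and 81.7 CPM with HMOX1si1, and 94.1 and 110.4 CPM in siControl. All 5 genes lay below both controls in both HMOX1si2 libraries, and 4 of 5 did so with HMOX1si1, PCNA being the exception, where 28.1% of all genes tested lay below with HMOX1si2 and 31.9% with HMOX1si1. Their log2 fold changes ran from −0.40 to −0.16 with HMOX1si2 and from −0.35 to −0.09 with HMOX1si1. EdgeR called 0, with 3 at an unadjusted p under 0.05 for HMOX1si2 and 0 for HMOX1si1, and DESeq2 called 0 with each siRNA. RFC1, another clamp loader gene, was counted with the other origin and fork genes and went the other way with HMOX1si1. It had 53.3 and 51.6 CPM with HMOX1si2, 64.1 and 68.1 CPM with HMOX1si1, and 63.6 and 53.8 CPM in siControl. Its log2 fold changes were −0.16 with HMOX1si2 and 0.17 with HMOX1si1, neither called.

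Among polymerases, POLA2, the regulatory B subunit of the polymerase alpha-primase complex, fell with HMOX1si2. It had 45.6 and 46.7 CPM with HMOX1si2, 49.4 and 52.8 CPM with HMOX1si1, and 61.0 and 65.5 CPM in siControl, with no overlap between the groups. The log2 fold change was −0.45 with HMOX1si2 (SE 0.09, edgeR adjusted p = 0.0483) and −0.31 with HMOX1si1 (edgeR adjusted p = 0.0881), and the difference of HMOX1si2 from HMOX1si1 was −0.15 (95% interval −0.38 to 0.08, edgeR adjusted p = 0.432). The HMOX1si2 call stood close to the threshold: it was lost without any 1 library (0.0947 to 0.192), without the filter on low counts (0.0551) with library totals as the scaling (0.0547) and with the compared groups fitted alone (0.1002). With the replicate block the POLA2 call was lost too. POLA2 spans 65261762 to 65305589 on the plus strand of chromosome 11. POLA1, the catalytic subunit of the same complex, had 18.2 and 18.5 CPM with HMOX1si2, 24.9 and 26.8 CPM with HMOX1si1, and 20.8 and 18.7 CPM in siControl. HMOX1si2 was below both controls (log2 fold change −0.11) and HMOX1si1 above both (0.39, 95% interval 0.11 to 0.66, edgeR adjusted p = 0.0816), and edgeR called neither. POLE, the catalytic subunit of the leading-strand polymerase epsilon, had 242 and 218 CPM with HMOX1si2, 266 and 273 CPM with HMOX1si1, and 221 and 207 CPM in siControl, with log2 fold changes of 0.10 with HMOX1si2 (edgeR adjusted p = 0.531) and 0.33 with HMOX1si1 (edgeR adjusted p = 0.0804). The other genes of this group, PRIM1, POLD1, POLD3, POLE2 and the single-strand binding gene RPA2, lay between −0.21 and 0.05 with HMOX1si2 and between −0.09 and 0.27 with HMOX1si1, and neither tool called any of them. Of these 8 genes edgeR called 1 with HMOX1si2, 0 with HMOX1si1 and 0 between the siRNAs, with 1, 4 and 1 at an unadjusted p under 0.05, while DESeq2 called 1 with HMOX1si2 (POLA2), 2 with HMOX1si1 (POLA1 and POLE) and 1 between the siRNAs (POLA1).

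FEN1, which trims Okazaki fragments, and LIG1, which joins them, were not called, at −0.34 and 0.08 with HMOX1si2 and −0.16 and 0.16 with HMOX1si1. UNG, the uracil-DNA glycosylase, had 33.4 and 60.9 CPM with HMOX1si2, 60.5 and 32.4 CPM with HMOX1si1, and 40.5 and 31.3 CPM in siControl. Its replicates were further apart than those of any other gene on the list, 1.83-fold with HMOX1si2 and 1.87-fold with HMOX1si1, and the 95% interval of its log2 fold change, −0.54 to 1.32 with HMOX1si2 and −0.56 to 1.30 with HMOX1si1, covers both directions. In all, 6 of the 54 genes had replicates over 1.5-fold apart in a group, namely UNG, CDC25A, CCND3, ORC6, CCNE2 and GINS4.

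Genes of nucleotide synthesis were near control with HMOX1si1 and had values below it with HMOX1si2. RRM2, the S-phase subunit of ribonucleotide reductase, had 82.9 and 74.8 CPM with HMOX1si2, 103 and 108 CPM with HMOX1si1, and 103 and 97.2 CPM in siControl. TK1, the thymidine kinase of S phase, had 48.0 and 57.3 CPM with HMOX1si2, 69.3 and 61.5 CPM with HMOX1si1, and 69.6 and 78.5 CPM in siControl. In both genes the HMOX1si2 libraries lay below all others, at log2 fold changes of −0.35 (edgeR adjusted p = 0.0972) and −0.49 (edgeR adjusted p = 0.0861), against 0.07 and −0.18 with HMOX1si1. RRM1, the large reductase subunit, and TYMS, thymidylate synthase, were at −0.06 and −0.18 with HMOX1si2 and 0.15 and −0.00 with HMOX1si1. EdgeR called 0 of these 4 with either siRNA, with 2 at an unadjusted p under 0.05 for HMOX1si2 and 0 for HMOX1si1, and DESeq2 called 2 with HMOX1si2 and 0 with HMOX1si1.

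UHRF1, which recruits the maintenance DNA methyltransferase to newly copied DNA, had 54.1 and 56.5 CPM with HMOX1si2, 71.9 and 71.8 CPM with HMOX1si1, and 77.9 and 63.2 CPM in siControl. HMOX1si2 lay below all other libraries without a call (−0.35, edgeR adjusted p = 0.143). CHAF1A and CHAF1B, subunits of the chromatin assembly factor that deposits histones behind the fork, and SLBP, which binds histone mRNA, lay between 0.03 and 0.15 with HMOX1si2 and between 0.03 and 0.22 with HMOX1si1.

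The siRNAs were then set against each other directly. Values were lower with HMOX1si2 than with HMOX1si1 for 43 of the 54 genes (79.6%), against 49.5% of all genes tested, and the median difference was −0.16 on the log2 scale, against 0.00 over all genes. The 25 mitosis genes given below also had a median difference of −0.16. Both HMOX1si2 libraries lay below both HMOX1si1 libraries for 31 of the 54 genes and above them for 5. Of all 13769 genes tested, 3578 lay below and 3477 (25.3%) above, so 51.2% did not overlap, against 36 of the 54 genes. These differences were small, and 49 of 54 intervals lay within 2-fold. With 13 genes at an unadjusted p under 0.05 (24.1%, against 20.6% of all genes tested), CCND1 was the single gene called by edgeR, while DESeq2 called 6 (CCND1, E2F8, MCM4, MCM7, POLA1 and RRM2). The summed level of the 54 genes was 2648 and 2738 CPM with HMOX1si2, 3233 and 3086 CPM with HMOX1si1, and 3037 and 3027 CPM in siControl, so HMOX1si2 was lowest and HMOX1si1 highest. This sum weighs abundant genes most. The called gene CCND1 alone had means of 311 CPM with HMOX1si2, 441 CPM with HMOX1si1 and 453 CPM in siControl.

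**Figure D4:**
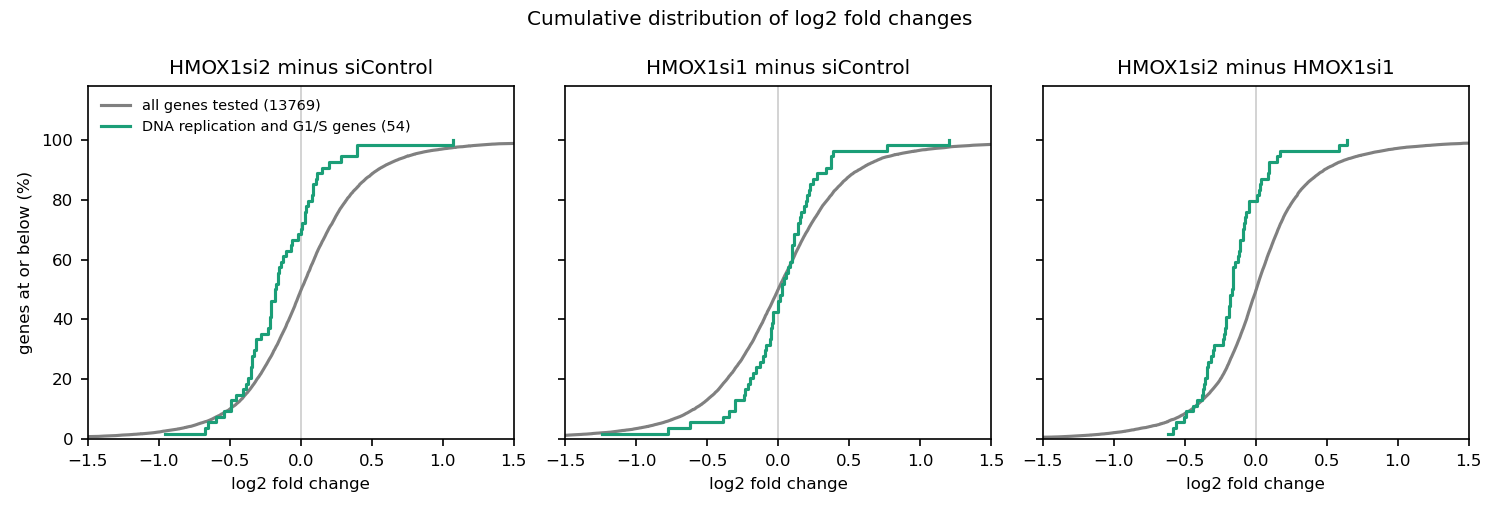
Percentage of genes (y axis) at or below each log2 fold change (x axis) for the 54 DNA replication and G1/S genes (green) and all 13769 genes tested (grey) in each comparison. The green line is steeper than the grey in each panel and stands left of it around 0 for HMOX1si2 against siControl (median −0.18) and against HMOX1si1 (median −0.16).

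Levels differed widely within the list. Scaled to the exon length of GENCODE 29 gene models, the mean level was highest for CCND1, at 64.3, 91.4 and 93.7 CPM per kilobase in HMOX1si2, HMOX1si1 and siControl, followed in siControl by PCNA (53.6, 60.0 and 69.5) and MCM7 (48.7, 62.3 and 56.5). CCNE2 (0.578, 0.785 and 0.726) and GINS4 (0.705, 1.08 and 1.11) were lowest. Within the helicase, per-kilobase levels in siControl ran from 10.5 for MCM4 to 56.5 for MCM7. Among the called genes, E2F2 (0.948, 1.20 and 1.84) and CCNE1 (1.91, 1.22 and 2.89) were low and CDK6 (6.49, 7.09 and 3.09) lay between them and CCND1. An exon of 15 of the 54 genes overlaps another gene of the table, and of the called genes this holds for CCND1.

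Other genes of the same process were counted in the same way. Over all genes tested, 5.73% were called with HMOX1si2, 10.0% with HMOX1si1 and 3.62% between the siRNAs, and 25.9%, 30.8% and 20.6% had an unadjusted p under 0.05. Of 37 other origin and fork genes edgeR called 0 in each comparison, with 8 at an unadjusted p under 0.05 for HMOX1si2, 7 for HMOX1si1 and 8 between the siRNAs (21.6%, 18.9% and 21.6%), and DESeq2 called 4, 2 and 4. Their median log2 fold changes were −0.10 with HMOX1si2, 0.04 with HMOX1si1 and −0.15 for HMOX1si2 against HMOX1si1, and 30 of the 37 had lower values with HMOX1si2 than with HMOX1si1. Of 15 other nucleotide supply genes, edgeR called 0 with HMOX1si2, 1 with HMOX1si1 (6.67%) and 0 between the siRNAs. An unadjusted p under 0.05 was found for 7, 4 and 4 (46.7%, 26.7% and 26.7%), and DESeq2 called 3, 3 and 2. Medians were −0.16 with HMOX1si2 and −0.17 with HMOX1si1. Log2 fold changes were negative for 13 and 12 of the 15 (86.7% and 80.0%, against 49.8% and 50.1% of all genes tested). The called gene was SAMHD1, which degrades deoxynucleotides and fell with HMOX1si1 (−0.69, edgeR adjusted p = 0.0194).

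Of 21 other G1/S regulators tested, 2 fell with HMOX1si1 (9.52%, against 10.0% of all genes called) and 0 were called with HMOX1si2, where edgeR had 1 at an unadjusted p under 0.05 and DESeq2 called 0. They were E2F5, a repressor E2F, at 10.4 and 10.0 CPM with HMOX1si2, 4.01 and 4.98 CPM with HMOX1si1, and 13.2 and 12.0 CPM in siControl (−1.49 with HMOX1si1, edgeR adjusted p = 0.00851), and TFDP2, an E2F dimerization partner (−0.42, edgeR adjusted p = 0.0387). E2F5 was higher with HMOX1si2 than with HMOX1si1 (1.19, edgeR adjusted p = 0.0191). Although both called genes fell with HMOX1si1, 15 of the 21 had positive log2 fold changes with it. With HMOX1si1, 8 lay above both controls (38.1%) and 4 below (19.0%), where 31.9% of all genes did each. Medians were −0.04 with HMOX1si2, 0.18 with HMOX1si1 and −0.14 between the siRNAs. For HMOX1si1 and between the siRNAs, 7 and 5 had an unadjusted p under 0.05, and DESeq2 called 5 and 4. Of 7 CDK inhibitor genes, edgeR called 1 with HMOX1si2 (14.3%), 0 with HMOX1si1 and 1 between the siRNAs (14.3%). An unadjusted p under 0.05 was found for 3, 0 and 4 (42.9%, 0.0% and 57.1%, against 25.9%, 30.8% and 20.6% of all genes). DESeq2 called 2, 0 and 3, and the median log2 fold changes were −0.36, 0.17 and −0.46. CDKN2B, which encodes the CDK4 and CDK6 inhibitor p15, fell with HMOX1si2 (−0.57, edgeR adjusted p = 0.0290). It had 78.99 and 74.96 CPM with HMOX1si2, 122.7 and 129 CPM with HMOX1si1, and 117 and 112 CPM in siControl. It was also lower with HMOX1si2 than with HMOX1si1 (−0.71, edgeR adjusted p = 0.0178). CDKN2A, not called, had 144 and 149 CPM with HMOX1si2, 205 and 196 CPM with HMOX1si1, and 172 and 185 CPM in siControl. Its protein was not measured.

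Of 25 mitosis genes, edgeR called 0 with HMOX1si2, where 6 had an unadjusted p under 0.05 and DESeq2 called 1, and 4 with HMOX1si1 (16.0%), against 5.73% and 10.0% of all genes. AURKA (−0.46), BIRC5 (−0.55) and HJURP (−1.12) fell with HMOX1si1, and KIF20A (0.50) rose, with edgeR adjusted p from 0.0107 to 0.0468. HJURP was higher with HMOX1si2 than with HMOX1si1 (0.89, edgeR adjusted p = 0.0278), the 1 mitosis gene edgeR called between the siRNAs. Most went the other way: 22 of the 25 (88.0%) had lower values with HMOX1si2, with a median difference of −0.16. In 13 (52.0%) both HMOX1si2 libraries lay below both HMOX1si1 libraries. The lower values with HMOX1si2, seen for 43 of the 54 genes (79.6%), were thus not particular to them. The median over these 25 genes was −0.01 with HMOX1si2 and 0.22 with HMOX1si1. Although 3 of the 4 called genes fell with HMOX1si1, 20 of the 25 had positive log2 fold changes, 17 lay above both controls (31.9% of all genes did) and 13 had an unadjusted p under 0.05. E2F5 shares exonic bases with RBIS, SAMHD1 with TLDC2, KIF20A with BRD8 and CDC23, and HJURP with MROH2A.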

How the data were processed

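Gene-level values of 6 libraries, 2 each for HMOX1si2, HMOX1si1 and siControl, came from 1 deposited table. The authors deposited whole numbers without normalization, handled here like expected counts (estimated counts). That unit is inferred from the values, and rounding changed none. The sources used here do not give the aligner, the counter or the use of strand. Low values were mostly even (71.9% of values between 1 and 10, 49.9% above 100), and whether reads or fragments were counted is unknown. GRCm38 and mm10, mouse builds, stand in the submitters' processing notes, but all 20263 identifiers are human. The table has no unused columns. Symbols were matched for 20148 genes, and 20224 are in GENCODE 29 (GRCh38), the source of coordinates and exon lengths; promoters are from RefSeq (GRCh38.p14).

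Genes were kept by filterByExpr (13769), scaled by TMM, and the 6 libraries were fitted together with a mean for each group in R 4.3.3 with edgeR 4.0.16 (glmQLFit, glmQLFTest; limma 3.58.1), with Benjamini-Hochberg adjustment over all genes and a threshold of 0.05. A standard error is the size of the log2 fold change over the root of its F statistic, and 95% intervals, not adjusted for multiple tests, rest on them. The median standard error was 0.12 for the 54 genes with either siRNA. CPM values use library sizes after TMM. Alternatives were DESeq2 1.42.0, its size factors, library totals, no filter, fits of the compared groups alone, a replicate block and leaving out each library. Replicates differed by more than sampling noise (chi-square per degree of freedom 85.2 in HMOX1si2, 49.0 in HMOX1si1 and 38.5 in siControl). Fits were tested on counts simulated with less spread between replicates than these data have. The common biological coefficient of variation here (relative spread beyond sampling noise) was 0.165. The simulation therefore does not cover the spread of these libraries.

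The members and lists were chosen with earlier results of these data known. Every member called is named with all its values, further members where their complex is described, and of other lists each called gene, RFC1 and CDKN2A. No list was tested as a set.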

Additional observations from a re-analysis of the deposited data

Results flagged for a closer look

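CCND1 differed between the siRNAs by the test of the difference itself: the log2 fold change of HMOX1si2 minus HMOX1si1 was −0.51 (edgeR adjusted p = 0.0440), lower in both HMOX1si2 libraries than in both HMOX1si1 libraries. The call was lost with library totals as the scaling, with the compared groups fitted alone and with the replicate block. As given above, it was also lost without any 1 library, where the difference ran from −0.55 to −0.46. Groups of 2 libraries are too small for a check of single outlying libraries.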

How the results depend on the processing

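Calls rest on 2 libraries a group, and leaving 1 out leaves a lone library assumed to vary like the others. Over all libraries, edgeR called 4, 4 and 1 of the 54 genes for HMOX1si2 against siControl, HMOX1si1 against siControl and HMOX1si2 against HMOX1si1. DESeq2's test called 8, 6 and 6, and over all genes 1845, 2590 and 1368. Library totals gave 3, 3 and 0, and no filter 3, 4 and 1. Fits of the compared groups alone gave 1, 3 and 0, and over all genes 179, 1529 and 156. Without 1 library the counts ran from 0 to 1, from 0 to 3 and from 0 to 1. They were 0 against siControl with either siRNA without siControl replicate 2, where 11 and 5 of the 54 genes had an unadjusted p under 0.05. Over all genes edgeR then called 0, with 2409 and 2806 at an unadjusted p under 0.05, and without siControl replicate 1 it called 0 for HMOX1si2, with 2968. DESeq2's size factors in edgeR changed no count or call of the 54 genes. The largest shift of the median of all genes by a scaling was 0.02 (log2).

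The labels do not say whether same-numbered libraries were handled together. Deviations of same-numbered libraries from their group means correlated at 0.01, 0.03 and −0.15 over 13769 genes. No strong shared deviation was seen, but these correlations cannot tell whether the samples were paired. With the replicate block edgeR called 0, 2 (CCNE1 and CDK6) and 0 of the 54 genes, with 15, 8 and 11 at an unadjusted p under 0.05. Over all genes it called 45, 481 and 87, against 789, 1381 and 499 without the block.

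For HMOX1, the range without 1 library was −2.90 to −2.79 with HMOX1si2, −1.85 to −1.65 with HMOX1si1 and −1.20 to −0.99 for HMOX1si2 against HMOX1si1. The last call was lost in all 6 of these fits (edgeR adjusted p from 0.0789 to 0.141), with the compared groups alone (−1.09, 0.0925) and with the replicate block (−1.10, 0.0770). CCND1 with HMOX1si1, not called, was between −0.086 and 0.012 without 1 library and turned positive without HMOX1si1 replicate 2 (0.0072) and without siControl replicate 1 (0.012).

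Genes called in at least 1 comparison, by list: other origin and fork genes had 0, 9 by DESeq2, and 1 each with library totals, no filter and compared groups alone, and 0 to 1 without 1 library. Other nucleotide supply genes had 1, with 6 by DESeq2, 0 with the block and 0 to 2 without 1 library. Other G1/S regulators had 2, with 6, 1 and 0 to 1. CDK inhibitors had 1, with 3 by DESeq2, 0 with the block, 0 with compared groups alone and 0 to 1 without 1 library. Mitosis genes had 4, with 8 by DESeq2, 1 with the block and 0 to 5 without 1 library. The cause of these changes was not tested.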
